A study of Mus musculus with 24 samples.

Results

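The choroid plexus is a tuft of epithelium and vessels that hangs into the ventricles beside the hippocampus. 10 genes of its epithelium, Ttr, Kl, Folr1, Aqp1, Kcne2, Clic6, Tmem72, Slc4a5, Otx2 and Cldn2, were followed here by their symbols through hippocampal RNA-Seq libraries of Aged mice, as 10 of the 49568 symbols in each library. They were picked by name as known genes of this epithelium, with earlier results of the same libraries in view, in which Ttr stood out, so their levels and ratios across libraries are given as description without a test. The 24 libraries came from 24 male mice on a C57-Bl/6J background, 6 in each of 4 groups. WTSH were wild type mice in standard housing, WTEE were wild type mice in enriched housing, KDSH were MSK1 KD mice in standard housing and KDEE were MSK1 KD mice in enriched housing. MSK1 KD mice are homozygous for a knock-in point mutation in all cells that abolishes the kinase activity of MSK1, and they were bred as a line apart from the WT line, so genotype and line cannot be told apart. Enrichment meant large rat cages with a running wheel, a tube, a ladder and toys, and it ran from 18 months of age until hippocampal RNA was taken at 21 to 23 months.

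Choroid plexus epithelium secretes cerebrospinal fluid and forms the barrier between blood and that fluid. It carries water and ions across its cells, moves folate and hormones into the fluid, and is by far the main site of Ttr expression in the brain. Kl is also known from neurons of the hippocampus. In RNA from whole tissue, fewer cells of a type and less RNA per cell cannot be told apart. Whether choroid plexus was taken off each hippocampus at dissection is not given in the sources used here, so the levels and fold changes of these genes may measure how much of it a sample held, and that part was not tested.

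Counts on genes ranged from 27410239 to 71907130 in the 21 libraries used for tests. The other 3, WTSH samples 4 and 7 and KDSH sample 6, were left out of the tests and their values are given apart. The gene models Rn18s-rs5, Mir6236, Gm23935 and Lars2 together took 22.7% and 22.5% of the counts in WTSH 4 and 7. In KDSH 6 they took 5.46%. The paper describes a high share of ribosomal RNA reads in these 3 libraries. Rps6ka5, the gene of MSK1, had 665 to 1212 normalised read counts over the 21 libraries, and its level does not check the genotype because the mutation changes an amino acid. Hippocampal neuron genes were present throughout, with a summed level of 2902 to 5751 CPM (read counts scaled to a fixed library size) for 6 of them. The sum was lowest in WTEE 10, which also had relatively fewer counts on long genes than the other 23 libraries. In WTEE 10 the median of long genes lay 0.86 below that of short genes on the log2 scale, each gene taken against its median over libraries, compared with -0.28 to 0.25 elsewhere.

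Ttr encodes transthyretin, the carrier of thyroxine and retinol-binding protein in cerebrospinal fluid (chromosome 18 of GRCm38, 20665280 to 20674321, plus strand). In the 4 WTSH libraries its normalised read count, the count scaled to a common library size, was 394 in sample 2, 1237 in sample 23, 3564 in sample 5 and 197433 in sample 19. The 5 KDSH libraries had 233 in sample 3, 315 in sample 8, 1029 in sample 18, 1551 in sample 24 and 3583 in sample 1. The highest KDSH library was thus at 3583, while each other group held at least 1 library at 119756 or more. The WTEE libraries had 1026 in sample 17, 1292 in sample 21, 2111 in sample 16, 2562 in sample 11, 245482 in sample 10 and 265585 in sample 13. The KDEE libraries had 3026 in sample 22, 3135 in sample 15, 3978 in sample 20, 4207 in sample 9, 119756 in sample 14 and 434674 in sample 12. Ordered by Ttr, the 21 libraries therefore had a 28.5-fold step between KDEE 9 and KDEE 14, with 16 libraries under it and 5 above it. The left-out libraries lay under the step, with 464 in WTSH 7, 1431 in KDSH 6 and 2537 in WTSH 4. From KDSH 3 to KDEE 12, the lowest and the highest library, Ttr differed 1869-fold.

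**Figure D1:**
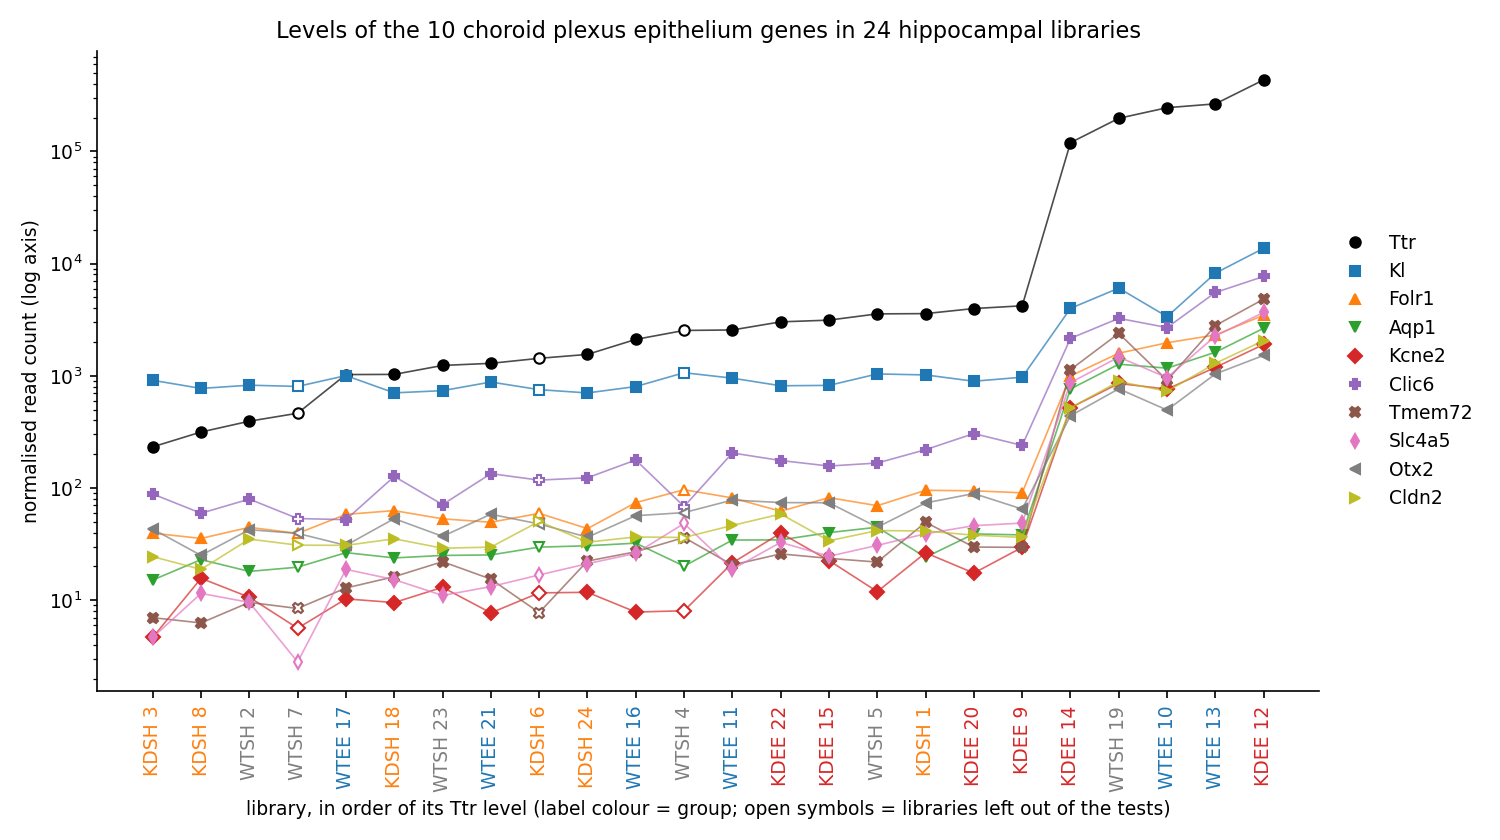
Normalised read count (log axis) of the 10 genes in the 24 libraries, which are ordered along the horizontal axis by their Ttr level and coloured by group, with open symbols for the 3 libraries left out of the tests. All 10 lines step up at the same place, between KDEE 9 and KDEE 14, while Kl stays between 703 and 1039 in the 16 tested libraries to the left of the step.

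The step of the other 9 genes fell at the same place. WTSH 19, WTEE 10, WTEE 13, KDEE 12 and KDEE 14 were the 5 highest libraries for all 10 genes. The same 5 libraries were the 5 highest for 488 of the 20187 genes tested (2.42%). Since the members were picked with their levels in these libraries known, nothing is read from the count of 10. The 10 genes together took 0.00264% of all counts in the lowest of the 21 libraries and 0.976% in the highest.

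Kl encodes Klotho, a membrane protein and secreted hormone of the choroid plexus and kidney that serves as co-receptor for FGF23 (chromosome 5, 150952607 to 150993817, plus strand). Kl had 737, 825, 1039 and 6047 normalised read counts in WTSH 23, 2, 5 and 19. In KDSH it had 703, 704, 772, 912 and 1018. These KDSH values lay within the range of the lower 3 WTSH libraries but for samples 24 and 18, which were slightly under it. The WTEE libraries ran from 802 over a median of 978 to 8219.7, and the KDEE libraries from 815 over a median of 933 to 13706. The left-out libraries had 753, 804 and 1065. Kl was the steadiest of the 10 genes below the step, where it spanned 1.48-fold over 16 libraries in which Ttr spanned 18.1-fold. Over all 21 libraries its highest value was 19.5 times its lowest, the smallest span of the 10 genes.

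Folr1 encodes folate receptor alpha, which takes folate through the epithelium into the fluid (chromosome 7, 101858331 to 101870788, minus strand). Folr1 had 44.6, 53.1, 69.5 and 1590.1 normalised read counts in WTSH 2, 23, 5 and 19, and 35.5, 39.5, 43.5, 62.8 and 95.4 in KDSH 8, 3, 24, 18 and 1. KDSH 1, the KDSH library richest in Ttr, was also the highest of its group for Folr1. The WTEE libraries ran from 49.5 over a median of 77.8 to 2313, the KDEE libraries from 62.0 over a median of 92.5 to 3469, and the left-out libraries had 39.4, 59.4 and 96.5. Its highest value over the 21 libraries was 97.7 times its lowest.

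4 of the genes serve the movement of water and ions. Aqp1 encodes the water channel of the apical membrane (chromosome 6, 55336432 to 55348555, plus strand), and it had 18.0, 25.04, 44.7 and 1269 normalised read counts in WTSH 2, 23, 5 and 19. KDSH 3, 8, 18, 1 and 24 had 15.1, 23.0, 23.8, 24.1 and 30.5. The KDEE libraries began above the highest KDSH library, at 34.5, and ran over a median of 39.5 to 2654. The WTEE libraries had a lowest value of 25.3, a median of 33.3 and a highest value of 1623. The left-out libraries had 19.7, 20.1 and 29.7, the last in KDSH 6 and still below every KDEE library. Aqp1 was the only member whose groups did not overlap in any of the 4 comparisons of groups, in KDEE against KDSH, and 183 of the 20187 genes tested (0.907%) were separated in that direction there.

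Kcne2 encodes a subunit that modulates potassium channels of the apical membrane (chromosome 16, 92292389 to 92298129, plus strand). It had 10.6, 11.9, 13.02 and 855 normalised read counts in WTSH and 4.65, 9.52, 11.7, 15.7 and 26.4 in KDSH. WTEE ran from 7.70 over 15.9 to 1188.5 and KDEE from 17.4 over 34.6 to 1904, each as lowest value, median and highest value. Kcne2 rested on few reads below the step, since it had 4 read counts in KDSH 3 and at most 31 in KDEE 9. Clic6 encodes a member of the chloride intracellular channel family (chromosome 16, 92485736 to 92541243, plus strand) and lies on the same chromosome as Kcne2, downstream of it. Clic6 had 71.1, 79.6, 167 and 3253 normalised read counts in WTSH and 59.5, 88.4, 123, 127 and 219 in KDSH, while WTEE ran from 52.2 over 191 to 5529.7 and KDEE from 157 over 272 to 7687. Slc4a5 encodes the sodium bicarbonate cotransporter NBCe2 of the apical membrane (chromosome 6, 83219828 to 83304945, plus strand). It had 9.55, 11.02, 30.8 and 1469 normalised read counts in WTSH and 4.65, 11.5, 15.2, 21.1 and 39.1 in KDSH. WTEE ran from 13.2 over 22.5 to 2260.3 and KDEE from 24.6 over 47.4 to 3677. Slc4a5 spanned 790-fold over the 21 libraries, next to Ttr, whereas Clic6 spanned 147-fold and Kcne2 409-fold. In the left-out libraries Kcne2 had 5.62 to 11.6, Clic6 53.4 to 117 and Slc4a5 2.81 to 48.2 normalised read counts, all under the step.

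Tmem72 encodes a transmembrane protein of little known function (chromosome 6, 116679063 to 116716913, minus strand). It had 9.55, 21.8, 22.03 and 2389.6 normalised read counts in WTSH 2, 5, 23 and 19, and 6.27, 6.98, 16.2, 22.3 and 49.4 in KDSH 8, 3, 18, 24 and 1. KDSH 1 was thus above all KDEE libraries below the step, which reached 29.7. WTEE ran from 12.8 over 23.8 to 2804 and KDEE from 23.6 over 29.7 to 4826. Otx2 encodes a homeodomain transcription factor that choroid plexus epithelium keeps into adult life (chromosome 14, 48657677 to 48673819, minus strand). It had 37.1, 42.5, 44.7 and 766 normalised read counts in WTSH and 25.1, 36.4, 43.0, 53.3 and 73.5 in KDSH. WTEE ran from 30.8 over 68.2 to 1039 and KDEE from 64.9 over 81.65 to 1521. The counts disregarded strand, and 322 exon bases of Otx2 are shared with the unproven gene model Gm49154 on its own strand and the antisense RNA Otx2os1, so part of these reads cannot be assigned with certainty. No other member shares exon bases with another gene. Cldn2 encodes claudin 2, a tight junction protein that leaves epithelia permeable to cations and water (chromosome X, 139800828 to 139811386, plus strand). Its normalised read counts were 29.0, 35.0, 41.7 and 890.0 in WTSH, 18.8 to 41.4 in KDSH, 29.7 to 1292 in WTEE and 33.8 to 2061 in KDEE. Otx2 and Cldn2 spanned 60.7-fold and 110-fold over the 21 libraries, and Tmem72 spanned 770-fold. The left-out libraries had 7.74 to 36.2 normalised read counts of Tmem72, 39.4 to 60.3 of Otx2 and 30.9 to 50.3 of Cldn2, all under the step.

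**Figure D2:**
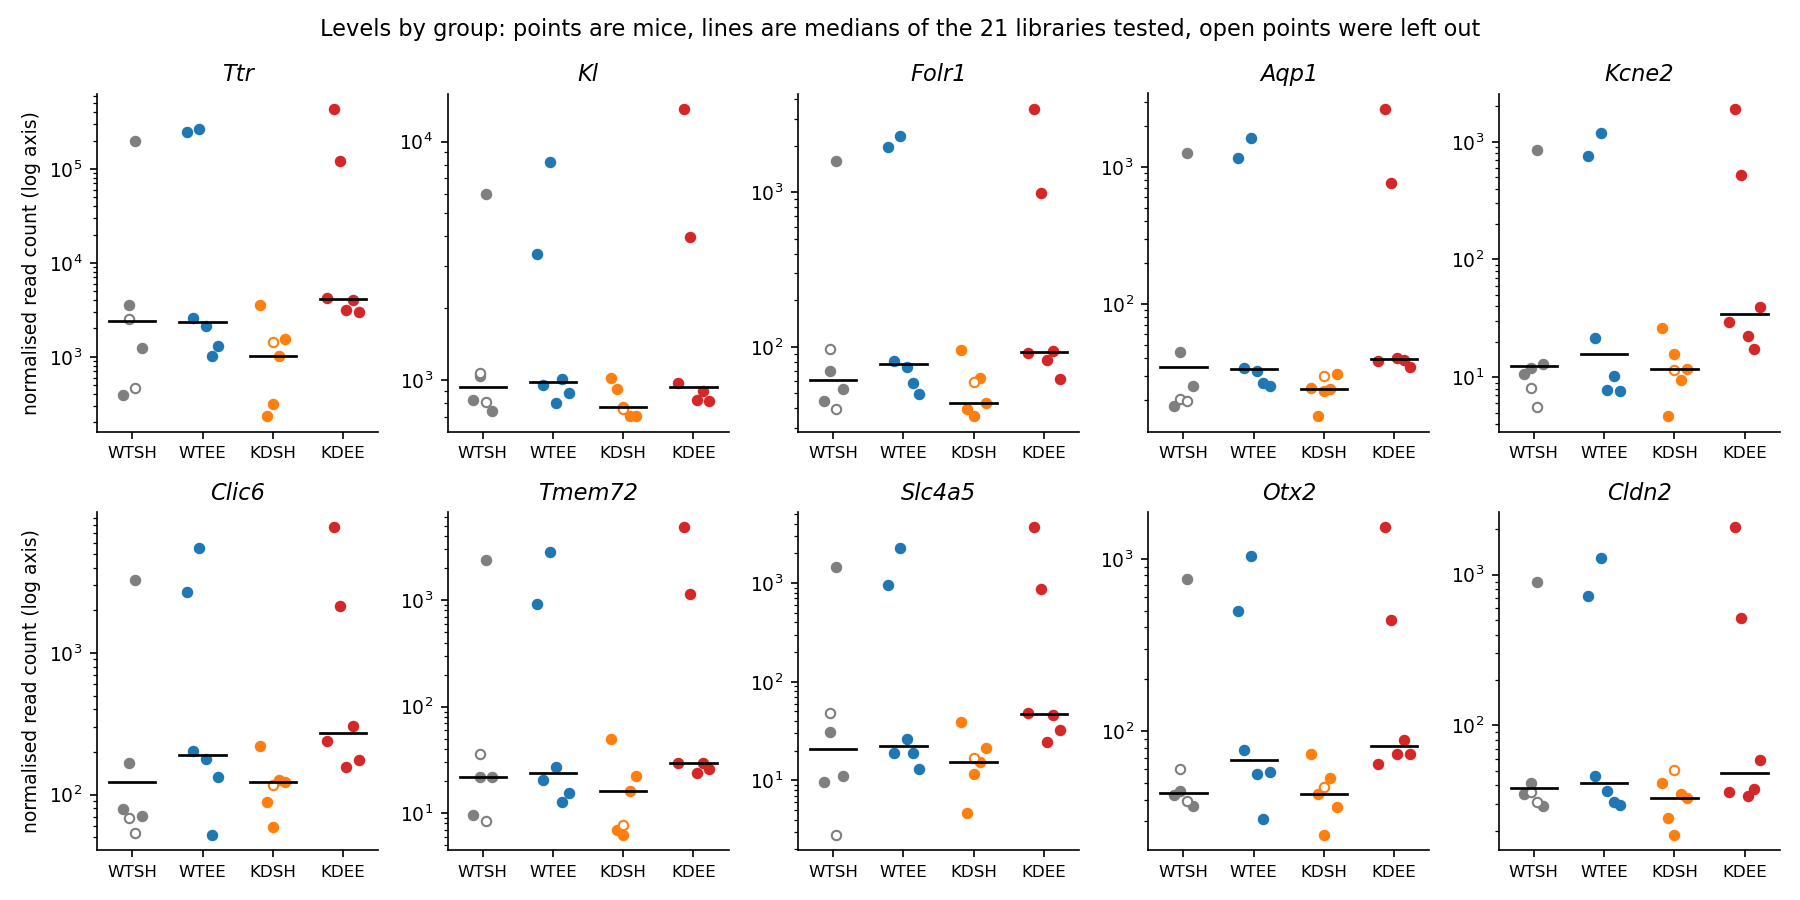
Normalised read count (log axis) of each gene by group, with a point for each mouse, a line for the median of the tested libraries and open points for the libraries left out. WTSH has 1 high library, WTEE and KDEE have 2 each and KDSH has none, in every panel. The KDSH median is the lowest of the 4 medians for 9 of the 10 genes and the KDEE median the highest for 9 of the 10.

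Group means hid this split. Ttr averaged 50657 ± 97860 (SD) over the 4 WTSH libraries, 86343 ± 131210 over the 6 WTEE libraries, 1342 ± 1365 over the 5 KDSH libraries and 94796 ± 172869 over the 6 KDEE libraries. The SD thus exceeded the mean in all 4 groups. The group medians of Ttr were 2401, 2336, 1029 and 4092 in the same order, and the 4 ranges overlapped. For 9 of the 10 genes the KDSH median was the lowest of the 4, the exception being Clic6 with 123 in both KDSH and WTSH. The KDEE median was the highest for all genes but Kl, whose highest median was that of WTEE.

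Ratios between the genes within a library do not depend on library size. In KDEE 14, WTSH 19, WTEE 13 and KDEE 12 the read count of Kl was 3.06% to 3.33% of that of Ttr, and Folr1 was at 0.798% to 0.871%. Aqp1 was at 0.611% to 0.643% and Kcne2 at 0.433% to 0.448% in these 4 libraries. The highest of each of these ratios was at most 1.09 times the lowest, although the Ttr level of the 4 libraries ran from 119756 to 434674. Clic6 was at 1.65% to 2.08%, Tmem72 at 0.947% to 1.21% and Slc4a5 at 0.726% to 0.851%. Otx2 was at 0.350% to 0.391% and Cldn2 at 0.433% to 0.487%. Over all 45 pairs of the 10 genes, the highest ratio in these 4 libraries was 1.03 to 1.45 times the lowest.

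WTEE 10 was apart from these 4 libraries. Relative to the lowest of their 4 ratios to Ttr, Folr1 was at 1.01 of it in WTEE 10, Aqp1 at 0.780, Kcne2 at 0.716, Cldn2 at 0.684 and Clic6 at 0.665. Otx2 was at 0.576, Slc4a5 at 0.541, Kl at 0.448 and Tmem72 at 0.392. The 8 genes other than Folr1 thus had fewer reads for their Ttr count in WTEE 10 than in any of the 4 libraries. Ttr has the fewest exon bases of the 10, 1186, counted over all exons of the gene and not over a single transcript. In order of the ratios just given the exon bases are 2297, 2627, 1767, 3325, 3914, 4221, 5804, 9328 and 17177, so that Kcne2 alone breaks an order by length. The low counts of WTEE 10 on long genes moved with these ratios, and their part in them was not tested.

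**Figure D3:**
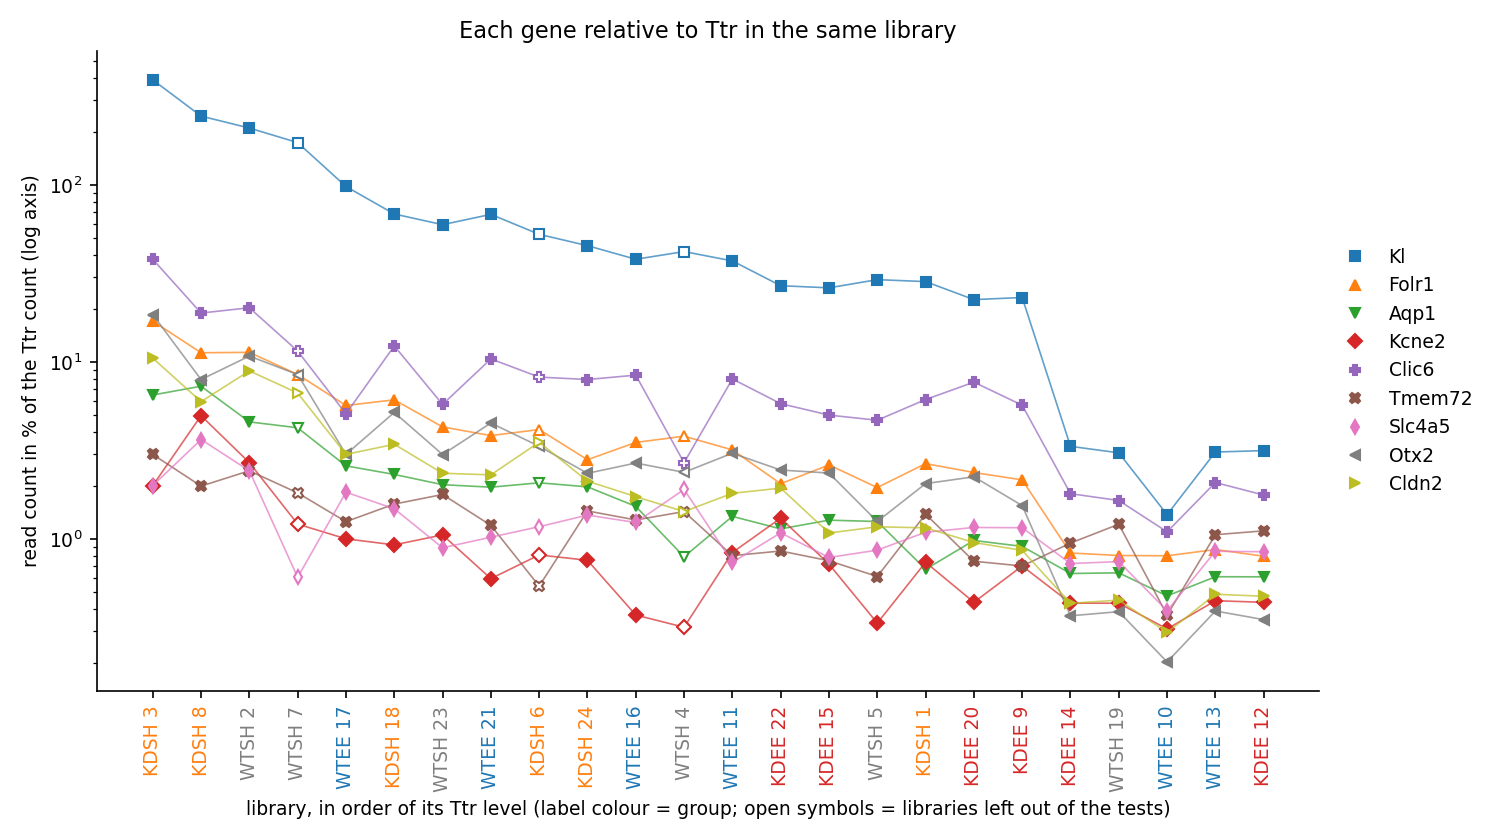
Read count of the other 9 genes in percent of the Ttr count of the same library (log axis), with libraries ordered by Ttr level and open symbols for the libraries left out of the tests. From left to right Kl falls from 392% in KDSH 3 to 3.15% in KDEE 12, while Tmem72 stays between 0.371% and 3% and Slc4a5 between 0.392% and 3.64% in the 21 tested libraries.

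Below the step the ratios fanned out. In KDSH 3, the library poorest in Ttr, Kl had 784 read counts and Ttr 200, so that Kl was at 392% of Ttr. Kl was at 244.7% in KDSH 8, 209% in WTSH 2 and 97.9% in WTEE 17, and it came down to 22.5% in KDEE 20. Kl therefore exceeded Ttr in 3 of the 21 libraries and also in the left-out WTSH 7, where it was at 173%. Otx2 was at 18.5% of Ttr in KDSH 3 and 1.25% in WTSH 5. Folr1 was at 17% in KDSH 3 and 1.95% in WTSH 5, and Clic6 at 38.0% and 4.68% in the same pair of libraries. Tmem72 and Slc4a5 followed Ttr most closely, with a highest ratio over the 21 libraries 8.08 and 9.28 times the lowest, compared with 286 times for Kl and 91.7 times for Otx2. Of all 45 pairs, Folr1 and Cldn2 had the steadiest ratio, with 1.06 to 2.71 Folr1 reads per Cldn2 read over the 21 libraries.

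Which genes kept reads where Ttr was poor was described by a scaled count. This is the count that a gene would have in a library if it kept the ratio to Ttr that it had in KDEE 12. In KDSH 3, Kl had 784 counts where 6.31 would follow from Ttr, Clic6 had 76 for 3.54, Otx2 had 37 for 0.700, Folr1 had 34 for 1.596 and Cldn2 had 21 for 0.948. Aqp1 had 13 counts for 1.22, Tmem72 had 6 for 2.22, Slc4a5 had 4 for 1.69 and Kcne2 had 4 for 0.876. All 9 genes were above the scaled count in this library, by 2.36 times for Slc4a5 up to 124 times for Kl. KDEE 9, the library just below the step, differed. There Tmem72 had 31 counts for 49.0, under the scaled count, Slc4a5 had 51 for 37.3 and Aqp1 had 40 for 26.9, while Kl had 1019 for 139 and Otx2 had 68 for 15.4.

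Set against the highest ratio to Ttr found in any of the 5 libraries above the step, Kl, Folr1, Clic6 and Otx2 each had more than 2 times the scaled count in 16 of 16 libraries below the step. Cldn2 had more than 2 times it in 14 of 16 and Aqp1 in 10 of 16, and both were above it in 16 of 16. Kcne2 was above the scaled count in 13 of 16 libraries and Slc4a5 in 14 of 16. Tmem72 was above it in 9 of 16 and passed 2 times it in only 2. Tmem72 thus exceeded the scaled count in the fewest libraries of the 9 genes.

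**Figure D4:**
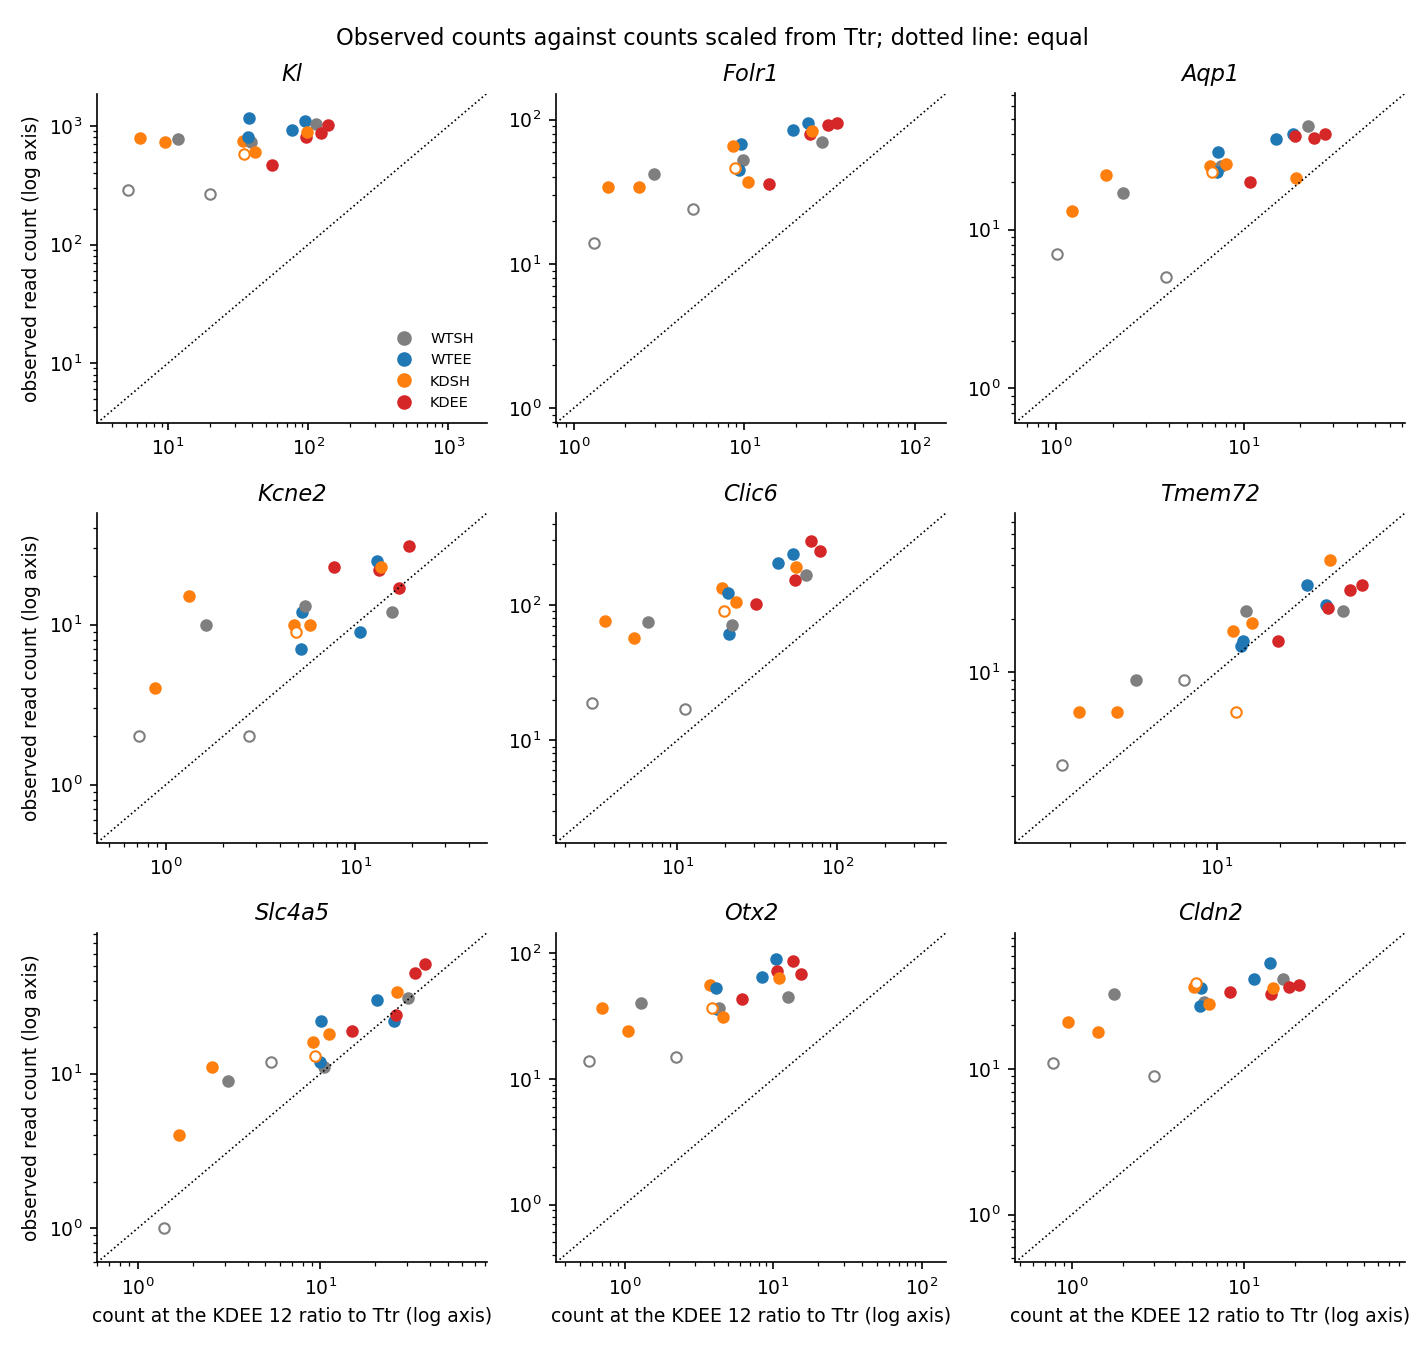
Observed read count of each gene (vertical log axis) against the count scaled from Ttr at the ratio of KDEE 12 (horizontal log axis) in the 19 libraries with less Ttr than KDEE 14, coloured by group, with open points for the 3 libraries left out of the tests and a dotted line where both are equal. Kl, Folr1, Aqp1, Clic6, Otx2 and Cldn2 lie above the line throughout, while points of Kcne2, Tmem72 and Slc4a5 lie on both sides of it.

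Read counts were also set against a floor of 3 counts. All 10 genes were above it in all 21 tested libraries. With the left-out libraries added, 7 genes were above it in 24 of 24, Tmem72 and Slc4a5 in 23 and Kcne2 in 22. The exceptions were Kcne2 with 2 counts in both WTSH 4 and WTSH 7, and Tmem72 with 3 counts and Slc4a5 with 1 count in WTSH 7, and WTSH 4 had the lowest depth of all with 15800187 counts. Such floors cover counting error only, since copies made by PCR were not marked.

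To compare levels between genes, CPM were divided by exon length in kilobases. In KDEE 12 this level was 7627 for Ttr, 40.9 for Clic6, 31.4 for Folr1, 30.6 for Kl, 22.4 for Kcne2 and 21.0 for Aqp1. It was 13.2 for Slc4a5, 12.9 for Cldn2, 7.50 for Otx2 and 5.85 for Tmem72. Ttr was thus far above all others per length. In KDSH 3 it was 4.08 for Ttr, 2.03 for Kl, 0.470 for Clic6, 0.358 for Folr1, 0.212 for Otx2 and 0.153 for Cldn2. Aqp1 was at 0.120, Kcne2 at 0.0548, Slc4a5 at 0.0167 and Tmem72 at 0.00845. As a background, 10 genes of other organs were measured alike, such as the heart myosin gene Myh6 and the lung surfactant gene Sftpc. The highest of the 10 in a library was at 0.709 to 1.36 over the 24 libraries and their median at 0.0344 to 0.127. Ttr and Kl were the only members above the highest of these genes in all 24 libraries. In KDSH 3, 7 members were above the median of the organ genes and Kcne2, Slc4a5 and Tmem72 were not.

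Genes of other cell types were examined for the same step. Of 20 further genes of choroid plexus epithelium, all 20 had their 5 highest libraries in common with Ttr, against 2.42% of all genes tested. This list was also chosen with results of these libraries known, so nothing is read from that count. Enpp2, which encodes autotaxin, had 170 to 251 CPM below the step and 959.6 to 3484 above it. Kcnj13, which encodes the potassium channel Kir7.1, was at 0 to 0.290 CPM below the step and at 3.67 to 15.4 above it, and Steap1 was at 0.133 to 0.359 and 3.98 to 12.4. Igf2 had 21.4 to 47.0 CPM below and 127 to 361 above. Of 6 ion transport genes that are also used elsewhere in the brain, 0 had these 5 libraries as their highest. A gene that rose in only some of the 5 libraries does not meet this measure.

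Genes of neighbouring tissues were examined alike. Of 6 ependyma genes, Foxj1 and Dynlrb2 shared the 5 highest libraries with Ttr, and the summed level of the 6 was 25.3 to 45.7 CPM below the step and 55.9 to 79.7 above it. Of 7 genes of meninges and fibroblasts, Lum and Col1a2 did so, with sums of 52.4 to 88.3 and 70.3 to 155 CPM. In both lists every gene was detected, and the part of ependyma and meninges in the member levels was not tested. 0 of 5 endothelial genes, 0 of 5 red blood cell genes and 0 of 6 hippocampal neuron genes shared the 5 libraries. Of the 10 genes of other organs, 6 passed the filter and 0 shared them. Red blood cell genes summed to 37.0 to 392 CPM below the step and 56.1 to 246 above it, so that the highest value was not in a library rich in Ttr. WTEE 10 had the highest sum of endothelial genes, 191 CPM, and of meningeal genes, 155 CPM.

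The 4 comparisons of groups and the interaction asked whether housing or genotype changed gene expression, and they were fitted over all 20187 genes that passed the filter on low counts. A gene was called at an adjusted p under 0.05 with an absolute log2 fold change over 0.38. edgeR's quasi-likelihood test with Benjamini-Hochberg adjustment called 0 of the 10 members in each of the 5, as it called 0 genes in all (0%). The members' log2 fold changes moved together because they shared the same high libraries, so counts over members do not count independent observations.

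In MSK1 KD mice the fitted levels of the members were higher with enrichment than without, but no difference passed the test. Their median log2 fold change of KDEE against KDSH was 4.28, compared with 0.0016 over all genes. It ran from 2.10 ± 0.84 (SE) for Kl to 6.14 ± 2.13 for Ttr, and the adjusted p values of edgeR lay between 0.367 and 0.396. 10 of 10 members had an unadjusted p under 0.05 and a higher level in KDEE, in a comparison in which 5.64% of all genes did. Without KDEE 12 the median was 2.65, and Ttr, with a log2 fold change of 4.32 ± 1.88, was the only member left at an unadjusted p under 0.05, where 3.02% of all genes were higher. The Wald test of DESeq2, the tool of the study, called Ttr as the only member, with a log2 fold change of 6.15 ± 1.52 and an adjusted p of 0.0462, among 0.0371% of genes called higher there. The adjusted p of Ttr lay between 0.0462 and 0.657 over the 29 alternatives. Summed red blood cell genes were 37.0 to 77.5 CPM in KDSH and 72.6 to 242 in KDEE, and summed ependyma genes 25.3 to 43.2 and 36.8 to 79.7 CPM. In the same fit 5 of 5 red blood cell genes and 3 of 6 ependyma genes were higher in KDEE at an unadjusted p under 0.05. So was 1 of 6 ion transport genes of fluid secretion, Car2, with a log2 fold change of 0.29 ± 0.09. The part of these genes in the difference was not tested.

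In WT mice the same contrast gave smaller values. The median log2 fold change of WTEE against WTSH was 0.53, with values from 0.05 ± 1.58 (SE) for Tmem72 to 0.78 ± 1.29 for Folr1, and 0 of 10 members had an unadjusted p under 0.05 in edgeR, whose adjusted p values lay between 0.818 and 0.991. This rested on WTSH 19. Without it the median was 3.92 and 9 of 10 members, all but Kl, were higher at an unadjusted p under 0.05, where 5.02% of all genes were, with adjusted p values of 0.588. With all 21 libraries, 5 of 5 red blood cell genes were higher in WTEE at an unadjusted p under 0.05, compared with 3.95% of all genes, and their part was not tested. Without WTEE 13 the median was -0.50.

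The interaction compared the effect of enrichment in WT with that in MSK1 KD mice. The median difference in log2 fold change was -3.76, from -5.60 ± 2.53 (SE) for Tmem72 to -1.87 ± 1.16 for Kl, with adjusted p values of 0.99988 in edgeR. Ttr and Tmem72 were the 2 of 10 members with an unadjusted p under 0.05, where 0.971% of all genes were lower. The median was -0.48 without WTSH 19 and -2.06 without KDEE 12. The count of 2 members was 0 without WTSH 19, KDEE 12, WTEE 16, KDSH 3, KDSH 8, KDSH 18 or KDSH 24, each left out alone, and 9 without WTEE 13, where 1.78% of all genes were lower. A difference between the genotypes in the response of these genes to enrichment was thus not shown.

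Between the standard-housed groups the fitted levels of the members were lower in KDSH, but no difference passed the test and the values rested on WTSH 19. The median log2 fold change of KDSH against WTSH was -3.45, from -5.24 ± 2.09 (SE) for Ttr to -1.40 ± 0.88 for Kl, with adjusted p values of 0.99995 in edgeR. Ttr, Tmem72, Aqp1, Slc4a5 and Kcne2 were the 5 of 10 members lower at an unadjusted p under 0.05, where 0.5% of all genes were. The count depended on the setting. It was 10 in edgeR on only the groups compared, and 9 without the filter on low counts or in the Wald test of DESeq2. It was 2 in the robust fit and 2 with at least 10 counts required in every library. Shares of all genes in these settings are not given. Without WTSH 19 the median was 0.030, 5 of the 10 genes turned direction and 0 of 10 members were left at that p. That count was 1 without KDSH 3, KDSH 8 or KDSH 18, 2 without KDSH 24, 3 without KDSH 1, and 9 without WTSH 2, WTSH 5, WTSH 23 or KDEE 12, where 0.594%, 0.876%, 0.521% and 0.571% of all genes were lower, in the same order. This comparison shares KDSH with KDEE against KDSH, WTSH with WTEE against WTSH, and both groups with the interaction. Between the enriched groups, each with 2 libraries above the step, the median of WTEE against KDEE was -0.33, 0 of 10 members had an unadjusted p under 0.05, and the adjusted p values of edgeR lay between 0.957 and 0.994. That median was 1.39 without KDEE 12 and -1.39 without WTEE 13.

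**Figure D5:**
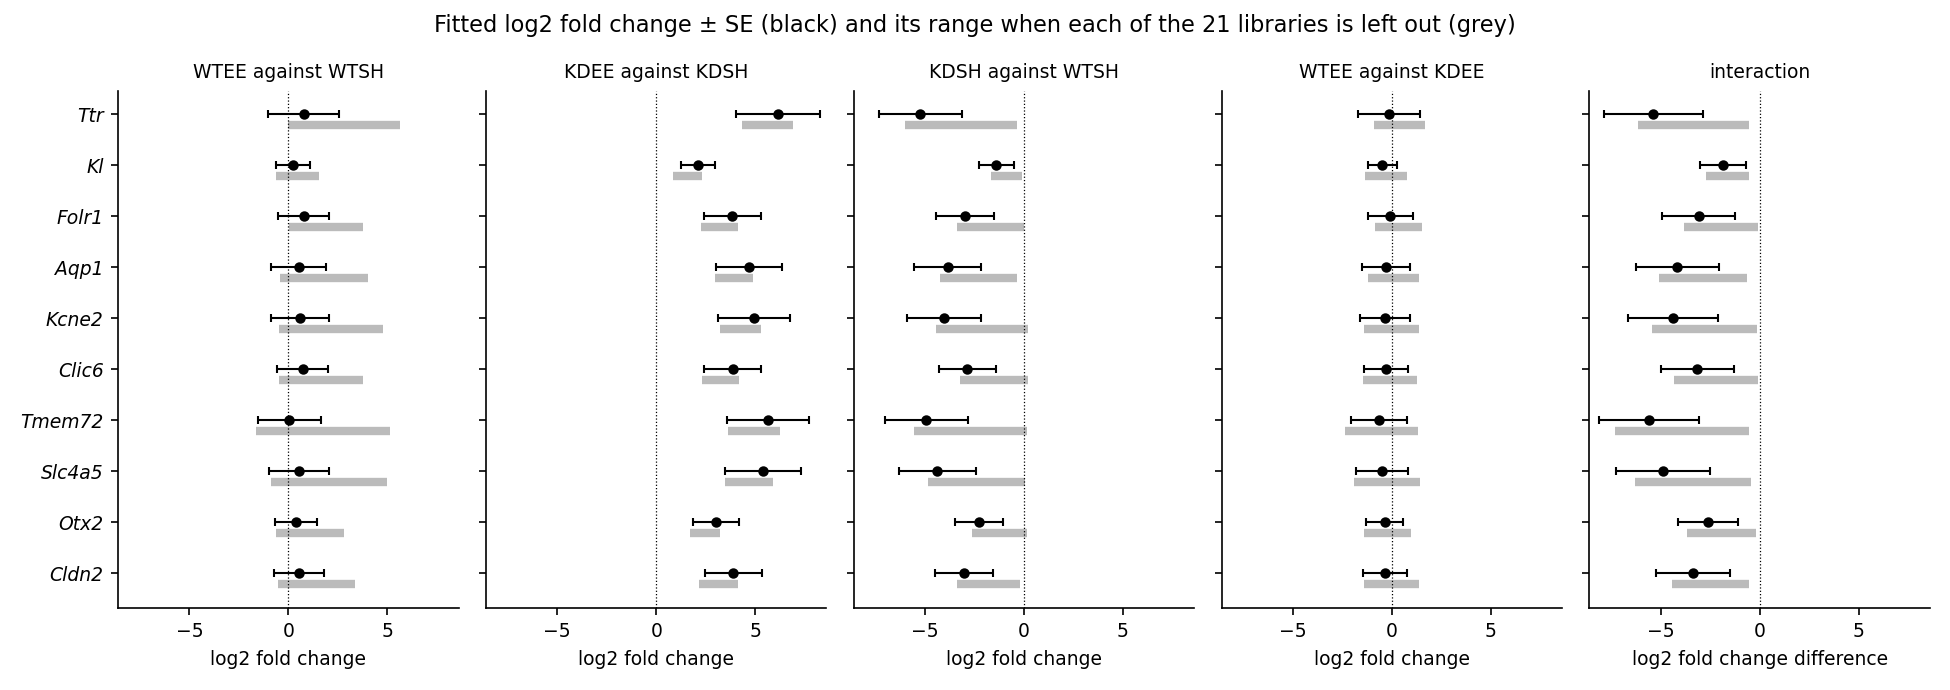
Fitted log2 fold change of each gene with its SE (black points and bars) in 4 comparisons of groups and the difference of log2 fold changes for the interaction, with a grey bar for the range over 21 fits that each leave out 1 library. Grey bars cross 0 for at least 1 gene in WTEE against WTSH, KDSH against WTSH and WTEE against KDEE. In the interaction their upper ends lie between -0.63 for Aqp1 and -0.076 for Clic6. In KDEE against KDSH the lowest value is 0.87 for Kl. KDEE holds more than 1 library above the step and KDSH none, so every fit kept a high KDEE library.

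The 20 further choroid plexus genes, a list that was also drawn up with results of these libraries known, were read in the same fits. 0 of 20 were called in any comparison, 19 of 20 were higher in KDEE than in KDSH at an unadjusted p under 0.05, compared with 5.64% of all genes, and 1 of 20, the coagulation factor gene F5, was lower in KDSH than in WTSH, compared with 0.5%. Since the list was chosen with these results known, nothing is read from the counts. The exception in the first was the carbonic anhydrase gene Car12, with a log2 fold change of 0.50 ± 0.37 (SE). Their median log2 fold change of KDEE against KDSH was 2.20, beside 4.28 for the members. In that comparison the median was 0.02 for the 6 ion transport genes, 0.46 for ependyma, 0.44 for meninges and fibroblasts, 0.13 for endothelium, 1.40 for red blood cells and -0.05 for hippocampal neurons, and 0 genes of these lists were called.

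The genes most like the members were found by the Pearson correlation of their log2 CPM with the mean scaled level of the 10 members over the 21 libraries. The 10 closest that were no members were Col8a2, with r = 0.994, Drc7, 1500015O10Rik, Steap1, Enpp2, Krt18, F5, Oca2, Mfrp and Slc2a12, with r = 0.984. Of these, Steap1, Enpp2, F5 and Mfrp were in the list of 20 further choroid plexus genes. Col8a2, a collagen of basement membranes, had 99.2 to 191 normalised read counts below the step and 824 to 2139 above it. 1500015O10Rik, which encodes the secreted peptide augurin, had 57.4 to 171 and 1215 to 3925, and Krt18, a keratin of simple epithelia, had 15.4 to 63.8 and 328 to 1066. In all, 78 genes outside the members had r above 0.95. The points share 5 high libraries, so the correlations are a description of that step and no test was made.

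Promoters of the members were searched for the letters that OTX2 binds, and those with a match are shown. OTX2 is a homeodomain protein of the bicoid type, for which TAATCC is the textbook site. The search covered 11 promoters of 7 of the 10 members, from the RefSeq table of GRCm38.p6. Ttr, Folr1 and Clic6 were not searched, so the shares below do not cover them. The 250 bases before the start were searched on both strands for TAATC, which reads GATTA on the other strand, and for TAATCC, in which it is contained. TAATC was in 3 of the 11 promoters, against 19.8% of 32851 promoters in the table, and TAATCC in 1 of 11, against 6.25%. The share is near the background. The 3 promoters are those of Kcne2 (chr16:92292139-92292388, plus strand), Tmem72 (chr6:116716759-116717008, minus strand) and an inner start of Otx2 (chr14:48665110-48665359, minus strand), and that of Kl (chr5:150952357-150952606, plus strand), the gene that varied least below the step, is shown beside them and has no match. Capitals mark TAATC or GATTA, which begin 32 bases before the start in Kcne2, 155 and 53 in Tmem72 and 210 in Otx2, where the base before the capitals completes TAATCC on the other strand.
Kcne2: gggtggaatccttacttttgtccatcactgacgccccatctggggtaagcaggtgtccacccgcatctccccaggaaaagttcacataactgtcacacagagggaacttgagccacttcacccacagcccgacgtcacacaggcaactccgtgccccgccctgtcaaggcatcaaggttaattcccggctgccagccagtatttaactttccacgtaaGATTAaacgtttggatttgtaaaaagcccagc
Tmem72: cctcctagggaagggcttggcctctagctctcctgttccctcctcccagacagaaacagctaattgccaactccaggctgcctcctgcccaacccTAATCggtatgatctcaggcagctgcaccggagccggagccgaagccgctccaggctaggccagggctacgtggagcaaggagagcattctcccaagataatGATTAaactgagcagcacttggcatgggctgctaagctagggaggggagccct
Otx2: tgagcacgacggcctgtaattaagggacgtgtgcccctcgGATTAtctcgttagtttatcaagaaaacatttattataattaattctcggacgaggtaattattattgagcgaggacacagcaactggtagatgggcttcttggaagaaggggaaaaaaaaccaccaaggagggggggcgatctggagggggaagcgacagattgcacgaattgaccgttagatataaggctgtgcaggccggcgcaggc
Kl: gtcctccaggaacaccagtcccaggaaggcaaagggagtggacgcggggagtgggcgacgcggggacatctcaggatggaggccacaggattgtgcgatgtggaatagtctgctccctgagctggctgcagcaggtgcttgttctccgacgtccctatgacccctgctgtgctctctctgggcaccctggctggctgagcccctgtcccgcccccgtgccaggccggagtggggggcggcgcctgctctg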

How the data were processed

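Poly(A) RNA from the hippocampus of 24 mice was prepared with Trizol and TruSeq v2 and sequenced as read pairs. The authors checked the reads with FastQC 0.11.3, trimmed adapters with Skewer, mapped the pairs to GRCm38 with STAR 2.5 and deposited raw counts of uniquely aligned read pairs per gene symbol from HTSeq 0.6.1p1, without regard to strand and without normalization. Rows that name no gene were left out, of which the 1 for reads outside genes took 8.41% to 33.0% of a library. Of 49568 symbols, 47139 (95.1%) matched 1 gene of GENCODE M21, which gave positions and exon lengths. An exon length counts the bases in any exon of a gene, over all its transcripts, and can exceed the length of the transcript expressed.

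The 10 members and all lists were chosen with earlier results of these data known. Normalised read counts are counts divided by TMM library size, scaled to the mean of 21 libraries. edgeR 4.0.16 under R 4.3.3 fitted its quasi-likelihood model over all genes that passed its default filter, with the 4 groups together, after a check on simulated data. The simulated counts had the same small spread for every gene, so the check does not cover genes with a few very high libraries, such as the members. The quasi-likelihood test gives no SE of its own. The SE printed with its values is the absolute log2 fold change divided by the square root of the F statistic. The SE printed with DESeq2 values is that of DESeq2. The 3 libraries that the study had left out stayed out of the tests. Mice were taken as unpaired, and a floor of 3 counts was used. Each mouse number occurs in 1 group only. Genes named are the members, Rps6ka5, the 10 genes most like the members and genes of the fixed lists. The gene models Rn18s-rs5, Mir6236, Gm23935 and Lars2 and the 2 genes overlapping Otx2 were named after their values or positions were seen. Figures were drawn with matplotlib 3.10.9. The alternatives were DESeq2 1.42.0, other size factors, filters and libraries, a robust fit and leaving out each library.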

Additional observations from a re-analysis of the deposited data

Results flagged for a closer look

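The level of each member was examined within each group for a library far from the others, by the gap of the highest or lowest library to its neighbour as a share of the group's whole range (Dixon's ratio at its 95% critical value). Chance gives such a gap in about 1 in 20 groups where values are normally distributed. The counts were not put on a log scale and were skewed, so that rate need not hold here. The 10 genes are also not independent of each other. The members were also picked with their levels in these libraries known. The gaps are therefore a description, and nothing is read from how many were found. In WTSH the highest library, sample 19, was far from the other 3 for all 10 genes, and the gap as a share of the range was Ttr 0.984, Kl 0.943, Folr1 0.984, Aqp1 0.979, Kcne2 0.997, Clic6 0.970, Tmem72 0.995, Slc4a5 0.985, Otx2 0.990 and Cldn2 0.985. In KDEE the highest library, sample 12, was far from the other 5 for all 10 genes, and the share was Ttr 0.730, Kl 0.754, Folr1 0.726, Aqp1 0.722, Kcne2 0.734, Clic6 0.734, Tmem72 0.769, Slc4a5 0.769, Otx2 0.742 and Cldn2 0.761. In WTEE the highest library, sample 13, was far from the other 5 for only 2 genes, with a share of Kl 0.654 and Tmem72 0.678. WTEE 10 also lay above the step for all 10 genes. A high neighbour narrows this gap, so the ratio does not show that WTEE lacked high libraries for the other genes. No gap of this size was found in KDSH for any of the 10 genes, or at the low end of any group. The median log2 fold changes without WTSH 19 or KDEE 12 are printed in the results beside the comparisons that hold these libraries.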

How the results depend on the processing

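Apart from leaving out a library, no alternative turned the direction of a member, and 375 of 375 log2 fold changes kept it. The number of members called stayed at 0 in all 5 comparisons under every alternative, except that the Wald test of DESeq2 called 1 member, Ttr, in KDEE against KDSH. The 10 genes most like the members shared 5 with the 10 by Spearman's rho, 7 with those over all 24 libraries and 10 with those scaled without the members. The cause of these differences was not tested. With at least 10 counts required in every library, Kcne2, Tmem72 and Slc4a5 could not be fitted. The fit on only the groups compared has no counterpart for the interaction, which needs all 4 groups.

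Over the 21 fits that each left out 1 library, the median log2 fold change of the members ran from -0.50 to 3.92 in WTEE against WTSH, 2.65 to 4.53 in KDEE against KDSH, -3.83 to 0.030 in KDSH against WTSH, -1.39 to 1.39 in WTEE against KDEE and -4.75 to -0.48 in the interaction, and 0 members were called in any. These fits turned the direction of 40 of 1050 log2 fold changes of single genes. In KDEE against KDSH every fit kept a library above the step in KDEE and none in KDSH, so its range does not show independence from such libraries. In WTEE against WTSH the ranges of the genes concerned were Ttr -0.0039 to 5.64, Kl -0.63 to 1.55, Aqp1 -0.41 to 4.04, Kcne2 -0.48 to 4.80, Clic6 -0.46 to 3.79, Tmem72 -1.64 to 5.14, Slc4a5 -0.88 to 4.99, Otx2 -0.64 to 2.83 and Cldn2 -0.53 to 3.36. In KDSH against WTSH they were Kcne2 -4.44 to 0.19, Clic6 -3.25 to 0.21, Tmem72 -5.56 to 0.15, Slc4a5 -4.85 to 0.074 and Otx2 -2.63 to 0.16. In WTEE against KDEE they were Ttr -0.91 to 1.69, Kl -1.34 to 0.76, Folr1 -0.84 to 1.502, Aqp1 -1.21 to 1.39, Kcne2 -1.39 to 1.39, Clic6 -1.46 to 1.26, Tmem72 -2.36 to 1.33, Slc4a5 -1.92 to 1.42, Otx2 -1.39 to 0.98 and Cldn2 -1.40 to 1.39.

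No paired analysis was possible because no mouse number occurs in more than 1 group. Depth limits Kcne2, Tmem72 and Slc4a5 most, with 4 to 6 read counts each in KDSH 3. The levels of all 10 genes rest on the same 5 libraries, which stand in 3 groups by 1, 2 and 2, so the comparisons of groups for these genes rest on them.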
